A study of Mus musculus with 4 samples.

Results

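Collagens and laminins are the structural proteins of the extracellular matrix, and 55 of the 30828 genes in the count matrices of a neonatal mouse testis experiment encode their chains. They were chosen by symbol alone: 44 have a symbol made of Col, a number, a and a number, and 11 have a symbol made of Lam, a, b or c and a number. The cells came from testes at postnatal day 8 and had been sorted for the surface proteins CD9 and THY1, which enriches spermatogonia but passes many somatic cells. The control animals were Cnot3flox/flox without Cre and carried the label wild-type. The Cnot3-cKO animals were Cnot3flox/flox with Ddx4-creER, a tamoxifen-inducible Cre driven by a germ cell promoter, so that the deletion is aimed at germ cells. The Cnot3 protein belongs to the complex that shortens mRNA poly(A) tails. Both groups received 4-hydroxytamoxifen in the first days after birth. Each genotype had 2 labelled samples but 1 merged matrix with no map from cells to samples, so it was treated as 1 library with no replicate. Whether the 2 samples were separate cell suspensions is not given in the sources used here. No difference between the libraries could therefore be tested, and a difference of genotype and a difference between 2 libraries cannot be told apart. All intervals are exact 95% intervals that cover counting error only.

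Fibrillar collagens (types I, III, V, XI and relatives) form the banded fibrils of the interstitium. Collagen IV and the laminins form the basement membrane, the sheet under the seminiferous tubule on which Sertoli cells and spermatogonia rest and to which the surrounding peritubular myoid cells also contribute. Every collagen molecule is a trimer of alpha chains, and every laminin is a trimer of an alpha, a beta and a gamma chain. Endothelial cells have a basement membrane of their own.

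Levels are given in CPM, the UMIs (unique transcript tags) of a gene per 1000000 UMIs of all genes in the cells of a class. The library method reads the 3' end of each transcript, so a level was not divided by transcript length, and levels of different genes are compared as tags. After filtering, 5615 control and 6034 Cnot3-cKO cells remained, with a median of 14183 and 13215 UMIs per cell, and 7 cell barcodes occurred in both. The cells were clustered without the collagen and laminin genes and named from marker genes. The clusters gave 1279 and 1524 peritubular myoid cells, 2086 and 2092 stromal cells, 1400 and 1724 Sertoli cells, 33 and 37 endothelial cells, and 241 and 72 germ cells in the control and the Cnot3-cKO library, respectively. Cnot3 itself stood at 69.4 CPM (interval 63.4 to 75.8) in control germ cells and at 38.4 (29.2 to 49.6) in Cnot3-cKO germ cells. In stromal cells it stood at 45.4 (43.0 to 47.9) and 44.7 (42.2 to 47.2).

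All 55 genes had a UMI in the kept cells, and 47 of them had at least 100 UMIs over both libraries in at least 1 class. The other 8 stayed under 100 UMIs in every class. Of the 47 genes, 18 were highest in peritubular myoid cells, 17 in stromal cells, 10 in endothelial cells, 2 in Sertoli cells and none in germ cells. No UMI minimum was set for the highest class. Among the endothelial genes, Col8a1 had only 3 control and 1 Cnot3-cKO UMIs in that class, and Col28a1 had 1 and 3. In stromal cells Col8a1 had 60 and 107 UMIs and Col28a1 had 113 and 107. Peritubular myoid and stromal cells together held most of the family's transcripts: 32.3% and 52.5% of the collagen and laminin UMIs of kept control cells, and 36.4% and 49.1% of those of Cnot3-cKO cells. In these classes the family took 2.92% and 3.03% of all UMIs in the control library. In Sertoli cells it took 0.0691%, in germ cells 0.0776% and in endothelial cells 0.465%.

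**Figure D1:**
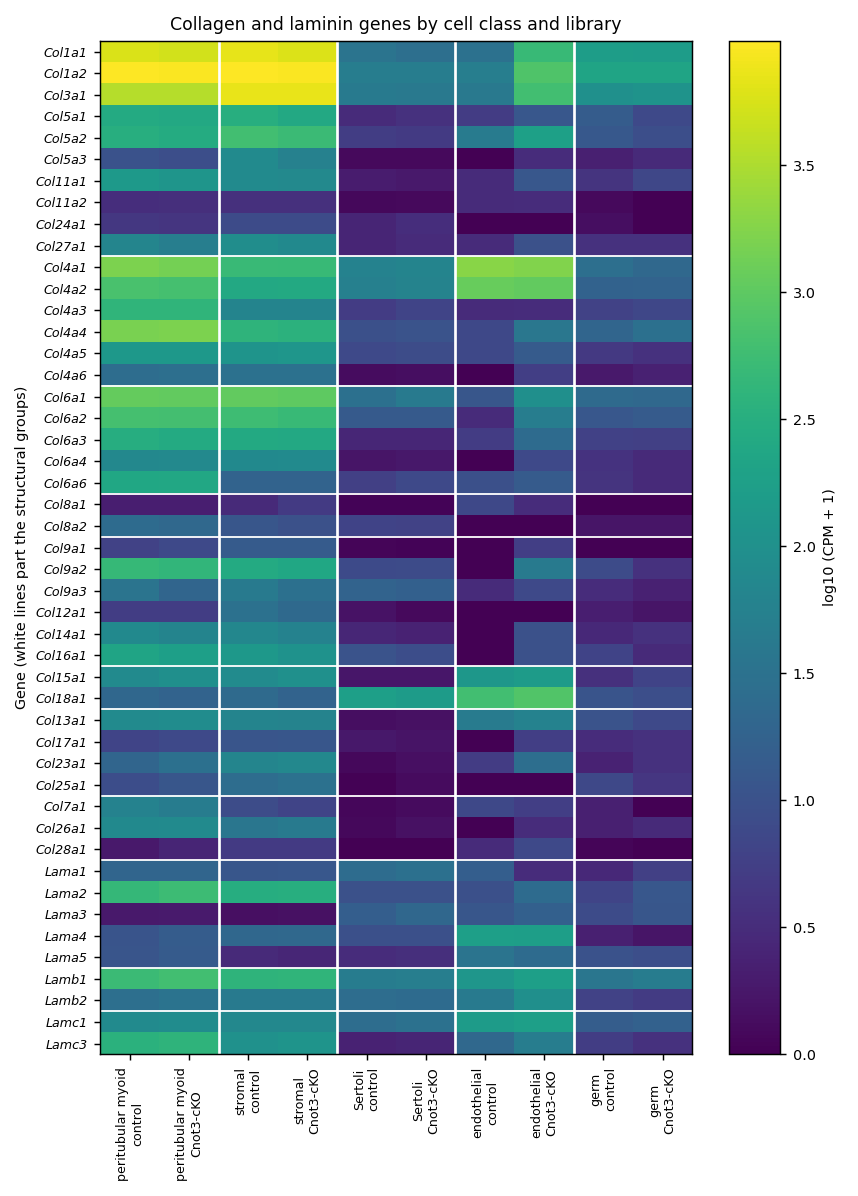
Level of the 47 genes with at least 100 UMIs in some class, as log10 of CPM plus 1 (color), for each of the 5 classes in the control and the Cnot3-cKO library (columns). Genes are ordered by structural group. The fibrillar genes Col1a1, Col1a2 and Col3a1 are brightest in peritubular myoid and stromal cells, Col4a1 and Col4a2 in peritubular myoid and endothelial cells, and Col18a1 in endothelial and Sertoli cells.

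Several collagen IV genes lie head to head, and the sequences that separate or join them are shown because the partners' levels are set side by side further on. Coordinates are those of the GRCm38 build (mm10). Col4a3 begins at position 82586921 on the plus strand of chromosome 1 and Col4a4 at 82586849 on the minus strand, which leaves 71 bases between them, at chr1:82586850-82586920. Col4a2 begins at 11312805 on the plus strand of chromosome 8 and Col4a1 at 11312826 on the minus strand, so that their first 22 bases overlap, at chr8:11312805-11312826. Col4a5 and Col4a6, on chromosome X, are 1308 bases apart. Both sequences are from RefSeq promoter windows, written 5' to 3' on the minus strand, and capitals mark the letters GGGCGG on either strand.
Col4a4-Col4a3: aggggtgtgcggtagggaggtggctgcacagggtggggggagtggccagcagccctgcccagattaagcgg
Col4a1-Col4a2: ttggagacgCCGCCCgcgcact
GGGCGG or its complement CCGCCC occurred in the 250 bases before the start in 32.7% of all 32851 windows and in 24 of the 44 windows of the 40 collagen and laminin genes that had one. The letters in capitals above lie after the starts of Col4a1 and Col4a2, which is a different region from the 250 bases counted. The interval between Col4a4 and Col4a3 had 69.0% G and C, and the overlap of Col4a1 and Col4a2 had 72.7%.

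Collagen I led in both peritubular myoid and stromal cells. Col1a2, the alpha 2 chain of collagen I, reached 9502 CPM in the peritubular myoid cells of the control and 9274 in those of the Cnot3-cKO library, and 9787 and 9193 in stromal cells, in the same order of libraries as all pairs of values that follow. Col1a1, the alpha 1 chain, stood at 5805 and 5184 in peritubular myoid cells and at 6884 and 6105 in stromal cells. A UMI of Col1a1 was found in 100% and 100% of peritubular myoid cells after every cell was thinned to 7500 UMIs. Col3a1, the single chain of collagen III, set the classes apart: it stood at 3558 and 3523 in peritubular myoid cells and at 7284 and 7162 in stromal cells, a level 2.05 times as high in stromal cells in the control and 2.03 times in the Cnot3-cKO library. Collagen V, which co-assembles with collagen I, was lower: Col5a2 stood at 319 and 287 in peritubular myoid cells and 598 and 533 in stromal cells, and Col5a1 at 278 and 251 and at 315 and 259. Fibrillar genes made up 67.5% of the family's UMIs in control peritubular myoid cells and 82.9% in control stromal cells.

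Col1a2 tags outnumbered Col1a1 tags, although collagen I is mostly built from 2 alpha 1 chains and a single alpha 2 chain. The ratio of Col1a2 to Col1a1 tags was 1.64 (1.62 to 1.65) in control and 1.79 (1.78 to 1.80) in Cnot3-cKO peritubular myoid cells. In stromal cells it was 1.42 (1.41 to 1.43) and 1.51 (1.497 to 1.52). How well each 3' end is captured was not tested.

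Of the 6 collagen IV genes, 4 were higher in peritubular myoid than in stromal cells, and Col4a5 and Col4a6 did not differ by 1.5-fold. Of 45 genes with at least 100 UMIs over the 2 classes in each library, 14 were at least 1.5-fold higher in peritubular myoid than in stromal cells in both libraries, 11 were at least 1.5-fold higher in stromal cells in both, and 20 were neither. Over all 11428 genes with as many UMIs these shares were 7.34% and 9.21%. The 14 were Col4a1, Col4a2, Col4a3, Col4a4, Col6a6, Col7a1, Col8a2, Col9a2, Col11a1, Col16a1, Col26a1, Lama1, Lama5 and Lamc3. The 11 were Col3a1, Col5a2, Col5a3, Col9a1, Col12a1, Col17a1, Col23a1, Col24a1, Col25a1, Col28a1 and Lama4. The largest of these ratios toward peritubular myoid cells was that of Col6a6, a collagen VI alpha chain, at 13.03-fold and 13.8-fold. The largest toward stromal cells was that of Col5a3, the alpha 3 chain of the fibril-regulating collagen V, at 8.72-fold and 7.13-fold.

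Col4a1 and Col4a2, whose chains form the common collagen IV trimer, stood at 1624 and 703 CPM in control peritubular myoid cells and at 1437 and 650 in Cnot3-cKO ones. In stromal cells Col4a1 stood at 504 and 485, and Col4a2 at 253 and 264. Col4a4, whose product assembles with those of Col4a3 and Col4a5, was close behind Col4a1: it stood at 1561 and 1583 in peritubular myoid cells against 397 and 367 in stromal cells. Col4a3 stood at 402 and 406 in peritubular myoid cells and at 62.1 and 61.6 in stromal cells, a 6.47-fold and 6.59-fold difference. Col4a5 did not share this contrast, with 132 and 135 in peritubular myoid and 115 and 124 in stromal cells. Col4a6 was low in both, at 26.2 and 28.0 against 29.7 and 30.2.

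The head-to-head partners stood in different proportions in the classes named here. Col4a4 had 3.88 (3.78 to 3.98) tags for each Col4a3 tag in control peritubular myoid cells and 3.90 (3.81 to 3.99) in Cnot3-cKO ones. In stromal cells the ratio was 6.39 (6.08 to 6.72) and 5.97 (5.67 to 6.28). For Col4a1 over Col4a2 it was 2.31 (2.26 to 2.36) and 2.21 (2.16 to 2.25) in peritubular myoid cells, but 1.08 (0.998 to 1.18) and 1.06 (0.98 to 1.13) in Sertoli cells and 1.62 (1.46 to 1.81) and 1.61 (1.43 to 1.80) in endothelial cells. For each pair, the intervals of these classes do not overlap, but those of further classes did. For Col4a1 over Col4a2 the stromal ratio was 1.99 (1.94 to 2.05) and 1.84 (1.79 to 1.89), which meets the Cnot3-cKO endothelial interval. For Col4a4 over Col4a3 the ratio in control germ cells was 3.75 (2.58 to 5.58), which overlaps that of peritubular myoid cells. The intervals of the libraries overlap in peritubular myoid and stromal cells for Col4a4 over Col4a3. For Col4a1 over Col4a2 they overlap in Sertoli and endothelial but not in peritubular myoid or stromal cells.

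Collagen VI, which forms beaded filaments around cells, differed little between peritubular myoid and stromal cells. Col6a1 stood at 1101 and 1063 CPM in peritubular myoid cells and at 1074 and 1003 in stromal cells. Col6a2 stood at 651 and 622 against 557 and 484, and Col6a3 at 303 and 274 against 262 and 251. Col6a6 was the exception, at 233 and 242 against 17.9 and 17.5. Among the collagens that attach to fibrils, Col9a2 led with 475 and 424 in peritubular myoid and 278 and 236 in stromal cells. It outnumbered its collagen IX partners: there were 14.4 Col9a2 tags for each Col9a3 tag and 92.6 for each Col9a1 tag in control peritubular myoid cells.

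The laminin genes of peritubular myoid cells were mainly Lama2, Lamb1 and Lamc3. Lamb1, the beta 1 chain, stood at 527 and 596 CPM, Lama2, the alpha 2 chain, at 461 and 547, and Lamc3, the gamma 3 chain, at 354 and 397. Lamc1, which encodes the gamma 1 chain found in most laminins, stood at 79.2 and 86.1. Lamc3 tags were 4.46 (4.22 to 4.72) times as many as Lamc1 tags in control peritubular myoid cells and 1.43 (1.36 to 1.52) times in stromal cells. In Sertoli cells the order was turned, with 0.0556 (0.0371 to 0.0802) Lamc3 tags for each Lamc1 tag in the control library. In stromal cells Lamb1 led the laminins, at 386 and 409, with Lama2 at 309 and 317. Lamb2 was low in peritubular myoid cells, at 27.9 and 31.6.

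The stromal class was not uniform. It was made of cluster 4, led by Clec3b, Dlk1 and Mfap5, and cluster 5, led by Hhip, Smoc2 and Mfap4. Col3a1 stood at 9287 CPM in cluster 4 and at 4467 in cluster 5 of the control library, and Col5a3 at 112 and 33.5. Col12a1, a collagen that binds to fibril surfaces, stood at 44.3 and 8.81. Cluster 5 was the higher in Col4a4, at 536 against 299, and in Lamc3, at 157 against 65.3. The same order held in the Cnot3-cKO library, with Col3a1 at 9121 and 4528 and Lamc3 at 79.5 and 163.7. Clusters 2 and 3 stayed unnamed. Cluster 2, led by cell division genes such as Cdc20, carried stromal and peritubular myoid markers, and cluster 3 carried Sertoli and stromal markers, with summed collagens at 25119 and 23010 and at 15794 and 14532 in the control and Cnot3-cKO library. The 2 clusters of the peritubular myoid class, 8 and 13, were close, with Col4a4 at 1580 and 1417 in the control library.

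**Figure D2:**
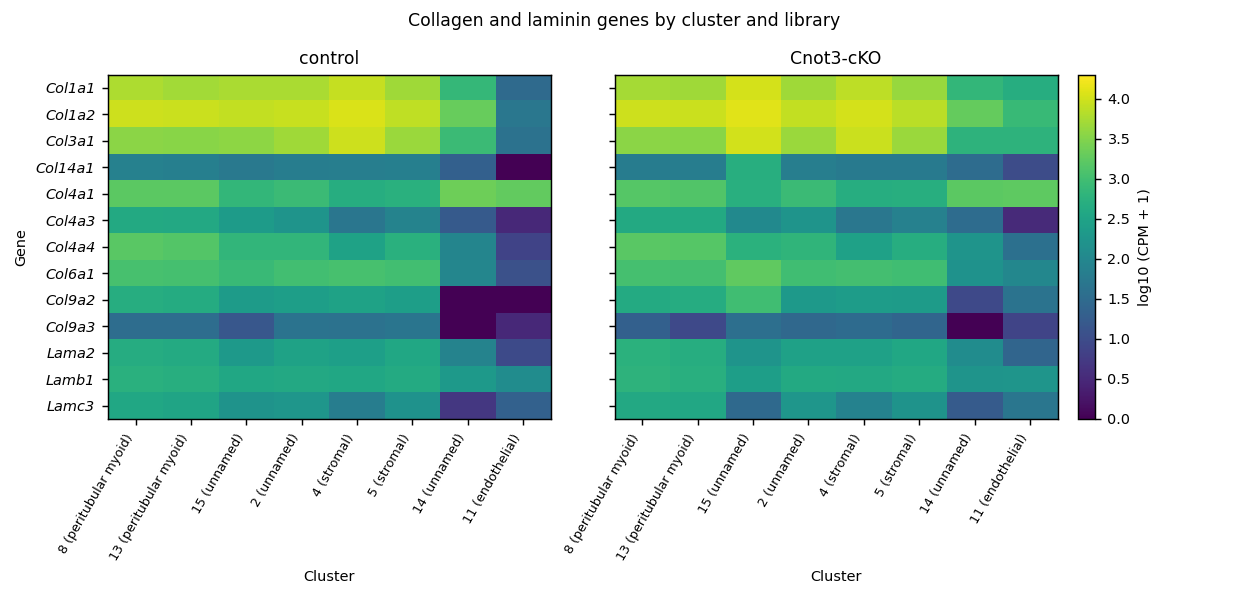
Level of 13 collagen and laminin genes, as log10 of CPM plus 1 (color), in 8 clusters of the control (left) and Cnot3-cKO (right) library. Cluster numbers carry the class name, or unnamed. Col4a3, Col4a4 and Lamc3 are brightest in clusters 8 and 13. In cluster 15, which held 15 control and 99 Cnot3-cKO cells, Col3a1 stood at 3752 in the control and 10162 in the Cnot3-cKO library.

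In Sertoli cells the leading gene was Col18a1, which encodes the basement membrane collagen whose C-terminal part is endostatin. Its level was 176 CPM (170 to 181) in the control library and 151 CPM (146 to 156) in the other. After thinning, 71.4% and 64.8% of Sertoli cells held a UMI of it, against 14.2% and 10.95% of stromal cells. Lama1 and Lama3, the alpha 1 and alpha 3 chains, were the 2 with their highest level in Sertoli cells among the 47 genes with at least 100 UMIs in some class. Lama1 stood at 24.5 and 29.1 and Lama3 at 14.7 and 20.5, while Lama3 was at 0.899 and 0.952 in peritubular myoid cells. After Col18a1, the leading genes of the class were Col4a1, at 57.2 and 62.9, and Col4a2, at 52.8 and 59.5. Col1a2 stood at 48.1 and 48.8, Col3a1 at 41.5 and 39.7, Col1a1 at 33.3 and 27.9 and Col6a1 at 28.2 and 41.3. Sertoli cells also held Lamb1 at 47.0 and 49.2, Lamc1 at 25.7 and 30.01 and Lamb2 at 25.2 and 24.1.

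Transcripts set free from broken cells enter every droplet, and low levels were set against barcodes with at most 100 UMIs, taken as empty. The share expected from free transcripts was the lowest share, over the marker lists of other classes, of a list's level in empty barcodes. In Sertoli cells it came from the stromal list and was 2.56% in the control and 2.51% in the Cnot3-cKO library, while the peritubular myoid list stood at 10.4% and 15.4%. Col1a1 stood in Sertoli cells at 0.615 and 0.534 times the expected level, Col1a2 at 0.759 and 0.690 times and Col3a1 at 0.957 and 0.795 times, so these levels were read as background. Col18a1 was at 115 and 79.8 times, Lama3 at 77.5 and 63.7 times and Lama1 at 73.3 and 57.2 times the expected level. Of the 26 genes with at least 100 UMIs in Sertoli cells, 21 lay above the expected level in both libraries, and 5, all fibrillar (Col1a1, Col1a2, Col3a1, Col5a1 and Col5a2), did not. Several of the 21 were under the share of the peritubular myoid list: Col4a4 was at 4.03% and 3.59% of its level in empty barcodes, and Col6a1 at 7.55% and 9.64%.

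**Figure D3:**
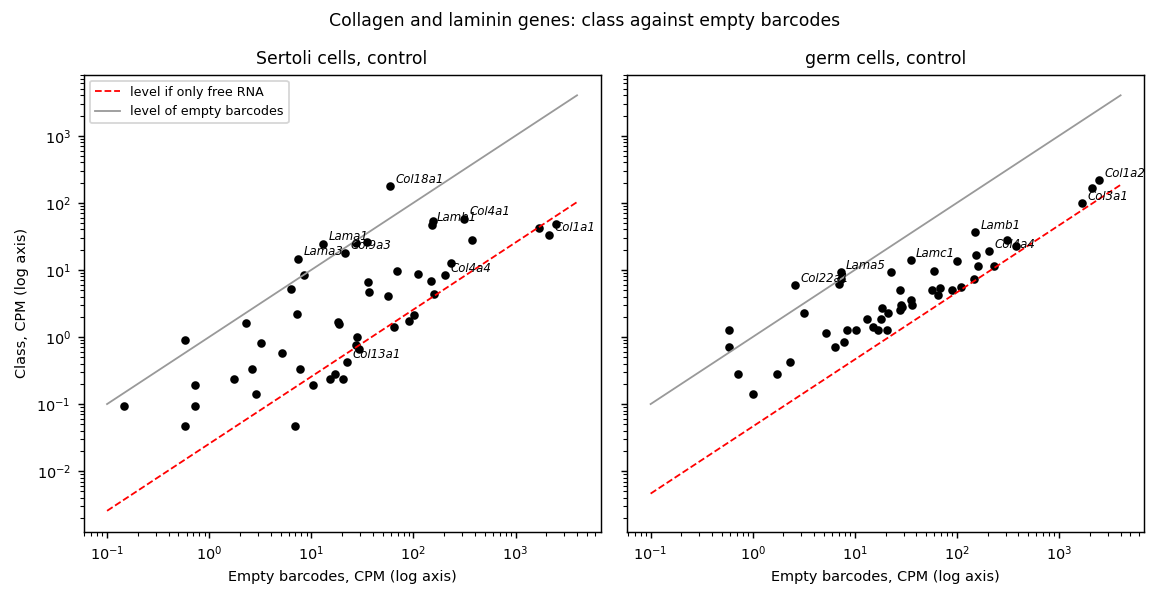
Level of each collagen and laminin gene in Sertoli cells (left) and germ cells (right) against its level in empty barcodes, control library, both in CPM on log axes. The gray line marks equal levels and the dashed line the share of free transcripts, 2.56% in Sertoli and 4.63% in germ cells. Col18a1, Lama1 and Lama3 lie above the gray line in Sertoli cells, and Col1a1, at 0.615 times the expected level, lies below the dashed line.

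In germ cells no gene of the family was high. The most abundant were Col1a2 at 216 and 213 CPM, Col1a1 at 165 and 157, Col3a1 at 98.5 and 110, Lamb1 at 36.3 and 47.0, Col4a1 at 28.1 and 21.2, Col4a4 at 19.0 and 29.1, Col6a1 at 22.9 and 21.2 and Col4a2 at 16.9 and 17.9. The fibrillar levels came from few cells: the median germ cell had 1.20 and 1.23 UMIs of Col1a1, Col1a2 and Col3a1 per 10000, whereas the 95th percentile was 37.3 and 38.3. Cells with at least 5 UMIs of Dcn and Lum, stromal proteoglycan genes, per 10000 UMIs numbered 9 of 241 and 3 of 72, and they held 37.8% and 57.2% of the fibrillar UMIs. Without them Col1a1 stood at 111 and 60.1. Lamb1 and Lamc1 hardly moved, Lamb1 at 34.4 and 45.7 and Lamc1 at 13.5 and 16.4, and with all germ cells they were at 5.21 and 5.02 and at 8.52 and 8.06 times the level expected from free transcripts. The stromal marker list itself stood in germ cells at 11.5% and 11.1% of its level in empty barcodes, above the 7.80% and 7.56% of Col1a1 and below the 24.1% and 25.6% of Lamb1. Col22a1, with 42 and 15 UMIs, was at 227% and 424% of its level in empty barcodes.

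In endothelial cells the family was led by basement membrane genes. Col4a1 stood at 1880 CPM (1759 to 2007) in 33 control cells and at 1736 (1617 to 1862) in 37 Cnot3-cKO cells, Col4a2 at 1158 and 1081, and Col18a1 at 610 (542 to 685) and 818 (737 to 906). Lama4, the alpha chain typical of vessel walls, stood at 177 and 172, against at most 21.6 in the other classes. Col15a1, the relative of Col18a1, stood at 131 and 157, and Lamc1 at 154 and 181. The Sertoli marker list stood at 2111 in control and 364 in Cnot3-cKO endothelial cells and the stromal list at 947 and 1149, and their part in the levels of this class was not tested.

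The comparison of the libraries asks whether deletion of Cnot3 in germ cells goes with a different level of matrix genes in the cells around them. In peritubular myoid cells the summed collagens amounted to 27672 CPM (control) and 26313 CPM (Cnot3-cKO), a log2 ratio of -0.07 (-0.08 to -0.07), and the summed laminins at 1489 and 1704, a log2 ratio of 0.19 (0.17 to 0.22). In stromal cells the collagens stood at 29375 and 27456 (log2 ratio -0.10, -0.10 to -0.09) and the laminins at 950 and 992 (0.06, 0.04 to 0.09). In Sertoli cells the collagens stood at 534 and 531 (-0.01, -0.04 to 0.03) and the laminins at 158 and 174 (0.14, 0.07 to 0.21). In germ cells the collagens stood at 690 and 679 (-0.02, -0.12 to 0.07) and the laminins at 85.8 and 109 (0.34, 0.08 to 0.59). The Sertoli marker list stood at 158 and 345 in germ cells, and its part in the laminin ratio was not tested. No sum in these classes reached a 1.5-fold difference. Between 2 libraries a narrow counting interval does not show how far libraries of the same genotype would differ.

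In peritubular myoid cells, 0 of 43 genes were at least 1.5-fold higher and 1 was at least 1.5-fold lower in the Cnot3-cKO library, against 1.09% and 1.02% of all 11085 genes with at least 100 UMIs. The median log2 ratio of the 43 was 0.01 and that of all genes -0.02. The gene was Col9a3, an alpha chain of the cartilage-type collagen IX, at 32.9 CPM (30.4 to 35.6) in control and 18.9 (17.0 to 20.8) in Cnot3-cKO cells, a log2 ratio of -0.80 (-0.99 to -0.62). Col23a1, a transmembrane collagen, lay just inside the limit at 19.1 and 28.3 (0.56, 0.37 to 0.76), and past it in a wider set of cells (0.67) and by the mean of per-cell CPM (0.61). With cluster 15, a cluster with myoid markers that held few control cells, counted in the class, Col12a1 was higher, at 4.39 and 11.7 (1.42, 1.05 to 1.79), against 4.28 and 4.33 without it, and Col14a1, another collagen of fibril surfaces, turned from -0.30 to 0.14. The 3 leading laminin genes stood higher in the Cnot3-cKO library, Lama2 by a log2 ratio of 0.25 (0.21 to 0.29), Lamb1 by 0.18 (0.14 to 0.22) and Lamc3 by 0.17 (0.12 to 0.21). Col4a4 differed by 0.02 (-0.00 to 0.04) and Col4a3 by 0.01 (-0.03 to 0.06). The smooth muscle marker list of the class stood at 4848 in control and 3957 in Cnot3-cKO cells, and its part in these ratios was not tested.

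In stromal cells, 1 of 46 genes was at least 1.5-fold higher and 1 at least 1.5-fold lower, against 0.8% and 0.706% of 11751 genes. The median log2 ratio was -0.04 for the 46 and -0.02 for all genes. Col8a1, a short-chain collagen, stood at 2.03 CPM (60 UMIs) and 3.83 CPM (107 UMIs), a log2 ratio of 0.92 (0.45 to 1.40). Its relative Col8a2 stood at 10.6 and 8.82 (-0.27). Col9a3 was again the gene with the lower level, at 43.0 and 28.3, a log2 ratio of -0.60 (-0.73 to -0.47). It was lower in cluster 5 (-0.92), in cluster 4 (-0.39) and in the myoid cluster 8 (-0.74), while in empty barcodes it stood at 21.3 in the control and 26.0 in the Cnot3-cKO library. In Sertoli cells it stood at 17.8 and 15.7 (-0.18, -0.39 to 0.03). Its partner Col9a2 differed by -0.16 (-0.21 to -0.12) in peritubular myoid and -0.24 (-0.29 to -0.19) in stromal cells. Col5a3 lay inside the limit, at 79.3 and 56.7 (-0.48).

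In Sertoli cells, 0 of 26 genes passed 1.5-fold in either direction, against 1.03% of 11071 genes higher and 0.741% lower. The median log2 ratio was 0.07 for the 26 and 0.04 for all genes. Nearest to the limit were Col6a1, at 28.2 and 41.3 CPM (0.55, 0.40 to 0.70), Col6a6, at 4.66 and 6.72 (0.53, 0.16 to 0.90), and Lama3 (0.48, 0.28 to 0.69). The peritubular myoid marker list stood at 89.7 and 128 in these cells, and its part in the Col6a1 and Col6a6 ratios was not tested. Col18a1 differed by -0.22 (-0.28 to -0.15).

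**Figure D4:**
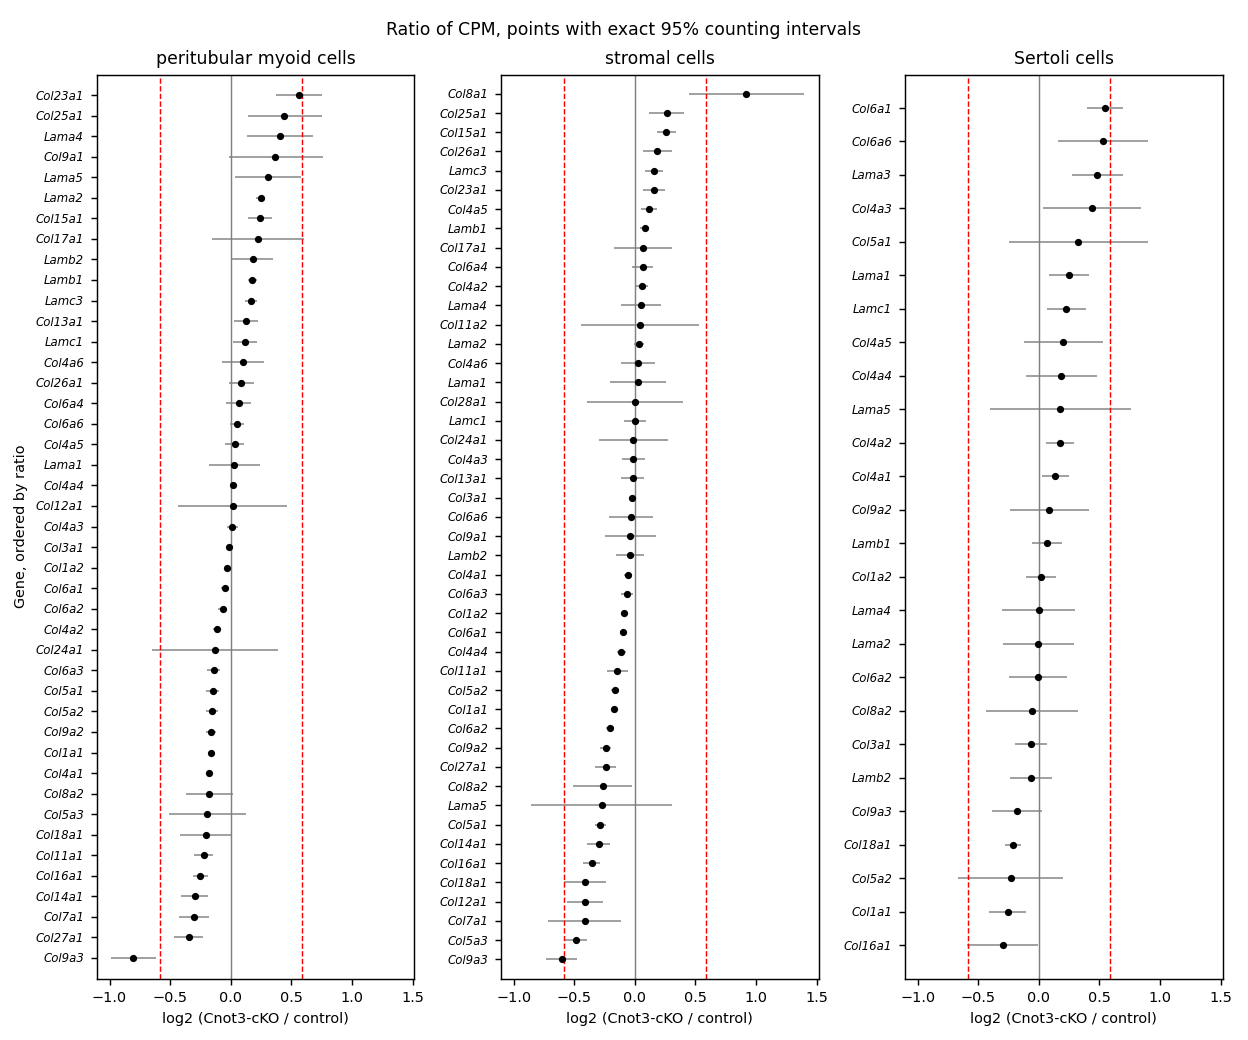
Log2 ratio of the level in the Cnot3-cKO library to that in the control library (horizontal axis) for each gene with at least 100 UMIs in peritubular myoid, stromal and Sertoli cells, with exact 95% counting intervals as gray bars. Dashed lines mark 1.5-fold. Only Col9a3 in peritubular myoid cells and Col8a1 and Col9a3 in stromal cells lie past them.

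In endothelial cells, 4 of 11 genes were at least 1.5-fold higher in the Cnot3-cKO library and none lower, against 4.42% of 1560 genes higher and 3.85% lower. The median log2 ratio was 0.42 for the 11 and -0.02 for all genes. The 4 were fibrillar: Col1a1 stood at 29.5 and 483 CPM (4.04, 3.26 to 4.93), Col1a2 at 50.5 and 783 (3.95, 3.36 to 4.62), Col3a1 at 40.0 and 609 (3.93, 3.26 to 4.68) and Col5a2 at 44.2 and 188 (2.08, 1.38 to 2.85). In that order they had 14, 24, 19 and 21 UMIs in the control and 219, 355, 276 and 85 in the Cnot3-cKO library. These genes thus met the UMI minimum over both libraries mainly through the library in which they were higher. The count of 4 of 11 and the median of 0.42 therefore depend on this minimum, which all 1560 genes also had to meet. The summed collagens stood at 4061 and 6312, a log2 ratio of 0.64 (0.55 to 0.72), and the summed laminins at 589 and 743 (0.33, 0.10 to 0.57).

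The values of Col1a1, Col1a2 and Col3a1 rested on 2 of the 37 Cnot3-cKO cells. These cells held 471 and 330 UMIs of Col1a1, Col1a2 and Col3a1, whereas no other Cnot3-cKO cell held more than 4 and no control cell more than 5. They also held 64 and 44 UMIs of Dcn, against at most 2 in any other endothelial cell, together with 156 and 85 UMIs of the endothelial marker list, which lay between 36 and 313 over all Cnot3-cKO cells of the class. Without these 2 cells the log2 ratio of Col1a1 was -0.59, that of Col1a2 0.34 and that of Col3a1 -0.12, the summed collagens differed by 0.12, and 0 genes with at least 100 UMIs passed 1.5-fold. Col5a2, with 21 and 50 UMIs left, fell under that minimum but still stood higher, at 44.2 and 123 CPM (1.47, 0.71 to 2.28). Col18a1 was then at 610 and 859, a log2 ratio of 0.49 (0.26 to 0.72), and Col4a1 at 1880 and 1857.

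**Figure D5:**
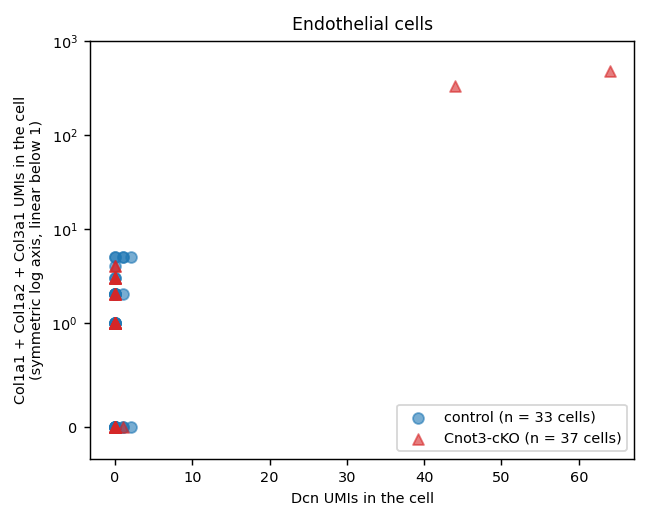
UMIs of Col1a1, Col1a2 and Col3a1 together (vertical, symmetric log axis, linear below 1) against UMIs of Dcn (horizontal) in each of 33 control (circles) and 37 Cnot3-cKO (triangles) endothelial cells; points overlap near 0. 2 Cnot3-cKO cells stand apart, with 471 and 330 fibrillar UMIs and 64 and 44 Dcn UMIs.

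In germ cells, 1 of 11 genes was at least 1.5-fold higher and 1 at least 1.5-fold lower, against 5.91% and 4.47% of 8032 genes. The median log2 ratio was 0.08 for the 11 and 0.02 for all genes. Col4a4 stood at 19.0 and 29.1 CPM (135 and 44 UMIs; log2 ratio 0.61, 0.09 to 1.11) and Col5a1, a chain of collagen V, at 13.4 and 6.62 (95 and 10 UMIs; -1.02, -2.12 to -0.08). In a wider set with 1333 and 559 germ cells, which also admitted deeper cells and cells with more mitochondrial UMIs, Col4a4 stood at 30.2 and 27.2 (-0.15, -0.28 to -0.03) and Col5a1 at 17.7 and 12.5 (-0.50, -0.69 to -0.32). In that set Lama3 stood at 7.49 and 12.0 (0.68, 0.46 to 0.89). In the kept germ cells Col5a1 was at 2.88 and 1.41 times the level expected from free transcripts, and did not lie above it in both libraries. The share of kept cells in the germ class was 4.29% in the control and 1.19% in the Cnot3-cKO library. The wider set held its 1333 and 559 germ cells among 8259 and 9268 cells. The filters thus left out most germ cells, and the shares of kept cells do not measure germ cell abundance. Sertoli cells were also fewer after filtering, with 2886 and 4363 in the wider set against 1400 and 1724 kept.

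The genes that process, bind or remodel these proteins, 69 in 6 lists, mostly stayed within 1.5-fold. In peritubular myoid cells 0 of 54 were higher and 2 lower, against 1.09% and 1.02% of all genes: P4ha3, a collagen prolyl hydroxylase subunit, at 7.93 and 4.86 CPM (-0.71, -1.08 to -0.34), and Itga3, a laminin-binding integrin, at 13.4 and 8.28 (-0.70, -0.98 to -0.41). In stromal cells none of 55 passed, against 0.8% of all genes higher and 0.706% lower. In Sertoli cells 1 of 44 was higher, the membrane protease gene Mmp15 at 2.71 and 4.13 (0.61, 0.13 to 1.10), and 1 lower, the basement membrane gene Tinagl1 at 7.51 and 4.41 (-0.77, -1.13 to -0.41), against 1.03% and 0.741% of all genes. Their medians were -0.04, -0.08 and 0.04.

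By list, the collagen chaperone gene Serpinh1 led the folding list in peritubular myoid cells, at 1225 and 1052 CPM, and the prolyl isomerase gene Ppib in stromal cells, at 892 and 862. Sparc, a collagen-binding protein of basement membranes, led its list, at 6177 and 4460 in peritubular myoid cells (-0.47) and 1690 and 1305 in Sertoli cells (-0.37). Pcolce, the enhancer of procollagen C-proteinase, stood at 260 and 223 in peritubular myoid cells, and Itgb1, the beta chain shared by many matrix receptors, at 384 and 366. In Sertoli cells the receptor list was led by Dag1, the laminin receptor dystroglycan, at 239 and 251, and the protease list by the inhibitor Timp3, at 163 and 136. Dcn led the fibril-binding list, at 1595 and 1775 in peritubular myoid and 4672 and 4737 in stromal cells. The gelatinase gene Mmp2, at 295 and 293 in peritubular myoid cells, and the inhibitor gene Timp2, at 252 and 233 in stromal cells, led the proteases and inhibitors there.

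In germ cells 3 of 23 such genes were higher and none lower, against 5.91% and 4.47% of all genes: Itga6, a laminin receptor chain used to enrich spermatogonia, at 39.5 and 60.9 (0.62, 0.27 to 0.97), Ddr1, a collagen receptor kinase, at 11.1 and 22.5 (1.01, 0.39 to 1.61), and Nid1, which links laminin to collagen IV, at 12.0 and 21.2 (0.82, 0.19 to 1.42). The Sertoli marker list stood at 158 and 345 in germ cells, and its part in these ratios was not tested. In endothelial cells 2 of 16 were higher, against 4.42% of all genes, Dcn at 18.9 and 240 (3.67) and Bgn, another proteoglycan gene, at 75.8 and 163 (1.11). Dcn is the gene by which the 2 cells named above stood apart, with 64 and 44 UMIs against at most 2 in any other endothelial cell. It thus met the UMI minimum mainly through the Cnot3-cKO library, and the count of 2 of 16 depends on this minimum. Ratios of Dcn and Bgn without these cells are not given here.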

How the data were processed

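The submitters' processing notes name Cell Ranger 3.0.1 and mm10. The deposited files hold raw UMI counts per gene and barcode, 1 matrix per genotype, in which the samples of that genotype are merged. The columns of other samples numbered 0. The control and Cnot3-cKO matrices held 181550221 and 168770743 UMIs, from which 8341 and 9336 barcodes reached a UMI minimum of 7977 and 7664 set from the 3000 deepest barcodes. As in the methods of the study, cells with over 10% mitochondrial UMIs or outside the mean ± 2 SD of UMIs or genes were left out.

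Cells were normalized, reduced to 30 components of 2500 variable genes without collagen and laminin genes, and clustered (scanpy 1.11.5, 15 neighbours, Leiden resolution 0.5). A cluster took the class whose fixed marker list exceeded the median cluster most, with at least 3 markers found in 10% of its cells and a lead of at least 1 on the log2 scale over the next list, a rule settled after seeing the clusters. A cluster with under 15% of its cells from either library (cluster 15, 15 and 99 cells) was kept out of the peritubular myoid class. No cell was removed as a doublet in the reported values; Scrublet marked 5.98% and 4.86%. Shares of cells came from cells thinned to 7500 UMIs, which left none out.

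UMIs were summed per class and library. Levels have exact Poisson intervals, and ratios exact conditional binomial intervals (scipy); the calculation was tested on simulated data. With 1 library per genotype no test was made. The text names Col1a1, Col1a2, Col3a1 and Col4a4, the 8 members highest in each class, every member with at least 100 UMIs and 1.5-fold, and the partner chains; Col23a1, Col5a3, Col22a1, Lama3, Lama4 and further genes named for class contrasts were chosen after their values were seen. The collagen and laminin genes, and all lists, were chosen with earlier results of these data known. Coordinates are from GENCODE M21 by gene ID, where 20 of the 55 genes overlap another gene on the same strand, so their counts are less certain.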

Additional observations from a re-analysis of the deposited data

Results flagged for a closer look

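Cluster 15 lay outside the 5 classes, and the class sums above left out its collagen transcripts. Above, it was counted with the peritubular myoid cells for Col12a1 and Col14a1, and it was shown in the plot of levels by cluster. Its summed collagens (in CPM, as above) stood at 22807 in its 15 control cells and at 43064 in its 99 Cnot3-cKO cells. The log2 ratio was 0.92 (0.88 to 0.96). Cluster 15 was led by Tagln, Ltbp2 and Ramp1, and its best-scoring marker list was that of peritubular myoid cells. Within it Col3a1 stood at 3752 and 10162, Col1a1 at 5589 and 10625, Col5a2 at 315 and 1094 and Col9a2 at 230 and 947. Col14a1 stood at 54.0 (12 UMIs) and 489.5, and Col12a1 at 13.5 (3 UMIs) and 150. The basement membrane gene Col4a3 went the other way, at 225 and 109, and the summed laminins stood at 856 and 623. The cluster took few cells of the control library, and the difference was not tested.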

How the results depend on the processing

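All values here are log2 ratios of the Cnot3-cKO to the control library, or counts of genes past 1.5-fold. No paired analysis was possible because each genotype was 1 merged library, and for the same reason no replicate could be left out. In peritubular myoid cells the collagen sum (-0.073) was -0.023 at resolution 1.0, -0.080 with free RNA subtracted, -0.056 centred on the median gene and -0.024 with cluster 15 included, and the laminin sum (0.19) was 0.16 at resolution 1.0 and 0.15 with cluster 15. The count of 1 gene was 2 with a wider set of cells, at resolution 1.0, by the mean of per-cell CPM, at 30 UMIs and with cluster 15, and 0 at 2-fold. The added gene was higher each time: Col23a1 in the wider set (0.67) and per cell (0.61), Col12a1 at resolution 1.0 (1.33) and with cluster 15 (1.42), and Col28a1 at 30 UMIs (0.89). At resolution 1.0 the peritubular myoid class took in a cluster of 19 control and 99 Cnot3-cKO cells. Like cluster 15, it was led by Tagln, Ltbp2 and Ramp1. In stromal cells the collagen sum was -0.10 at resolution 1.0, -0.081 per cell and -0.076 centred, and the count of 2 was 1 centred, 4 at 30 UMIs and 0 at 2-fold. In Sertoli cells the collagen sum (-0.01) was -0.23 at resolution 1.0 and -0.047 centred, and the count of 0 was 2 at resolution 1.0 and 1 with free RNA subtracted. At resolution 1.0 the Sertoli class took in a cluster of 209 control and 239 Cnot3-cKO cells. Like the unnamed cluster 3 above, it carried Sertoli and stromal markers. In endothelial cells the collagen sum (0.64) turned to -0.012 in the wider set and was 0.30 without Scrublet doublets, 0.43 per cell and 0.12 without cells holding Dcn and Lum, and the laminin sum (0.33) was 0.093 in the wider set. The endothelial count of 4 was 1 in the wider set, 2 without doublets, 1 with free RNA subtracted, 7 at 30 UMIs and 0 without cells holding Dcn and Lum, where Col5a2 was still at 1.47 but under the minimum of 100 UMIs. Col1a1 in endothelial cells turned to -0.0098 in the wider set and to -0.59 without cells holding Dcn and Lum, where Col3a1 was -0.12. In germ cells the collagen sum (-0.02) was -0.27 in the wider set, 0.21 without doublets, -0.49 with free RNA subtracted, 0.18 per cell and -0.45 without cells holding Dcn and Lum. The germ count of 2 was 5 in the wider set, 0 without doublets, 5 with free RNA subtracted, 9 at 30 UMIs, 1 at 2-fold and 1 without cells holding Dcn and Lum, and Col4a4 turned to -0.15 in the wider set. The cause of these changes was not tested. Of 365 ratios of named genes, 303 stayed within the counting interval of the reported ratio. The sign changed in 40, of which 4 were past 1.5-fold as reported. Col9a3 stayed between -0.83 and -0.70 in peritubular myoid cells and between -0.62 and -0.58 in stromal cells, the last just inside 1.5-fold. The settings with cluster 15 included and without cells holding Dcn and Lum were chosen after seeing the data. Endothelial and germ values rest on few cells, and a counting interval does not cover the spread between libraries.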
